A study of Drosophila melanogaster with 23 samples.

Results

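The odorant-binding protein genes of Drosophila melanogaster were taken as every gene whose symbol begins with Obp and a digit, together with lush, a member of the family that kept its own name. The rule found 52 genes, 51 Obp genes and lush, among the 17559 genes measured. RNA of adult heads, collected 5 to 7 days after pupation, was read by 3′ mRNA sequencing, in which each fragment counts 1 transcript near its 3′ end. The 5 groups of 4 biological replicates were scaled together, 20 libraries in all, and 3 libraries of a double heterozygote were scaled apart from them. The study asked whether fly mutants of genes linked to autism in people share changes in gene expression.

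Wild type flies were w1118. Each mutant group carried 1 mutant copy of the fly counterpart of a human gene, and the study names the group by that human gene. ASH1L/+ carried a Mimic insertion in ash1, WDFY3/+ carried bchs58, CHD2/+ carried chd1[1], and CHD8/+ carried kis1. The double heterozygote, CHD8/+; PPP2R5D/+, carried kis1 and wrd104. Every group but wild type was thus heterozygous for 1 allele of each named gene, so that an allele and the stock it came from cannot be told apart. The labels do not give the sex of the flies.

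Odorant-binding proteins are small secreted proteins whose fold is held together by disulfide bridges. Support cells of the olfactory sensilla release them into the fluid around the dendrites of the sensory neurons, where they bind small hydrophobic molecules such as odours and pheromones. The family is not limited to smell. Members are also made in taste organs, glia, fat body and the male reproductive tract, so that RNA of a whole head can hold members from several of these sources. In such bulk RNA, fewer cells of a type and less RNA per cell cannot be told apart.

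The family spanned nearly the whole range of levels in the head. Obp56d, which has been described in taste organs, had the highest level of the 52, a mean normalized count of 14480.2 over the 20 libraries. It alone held 38.0% of the family's summed normalized counts, and the first 5 genes held 83.8%. After Obp56d, the order by mean normalized count was Obp44a (7791), Obp99a (4042), Obp99c (3281) and Obp56e (2322). Counts were not divided by transcript length, because each fragment counts 1 transcript. Values of the 5 genotypes are listed in the order wild type, ASH1L/+, WDFY3/+, CHD2/+, CHD8/+ unless named. The next members by mean were Obp19d at 2070 normalized counts, Obp18a at 1399 and Obp56g at 701. At the other end, Obp51a and Obp58c were listed at 0 in all 20 libraries, and 21 members never reached 10 normalized counts. In all, 7 members had a mean over 1000, 9 a mean of 100 to 1000, 7 a mean of 10 to 100 and 29 a mean under 10.

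**Figure D1:**
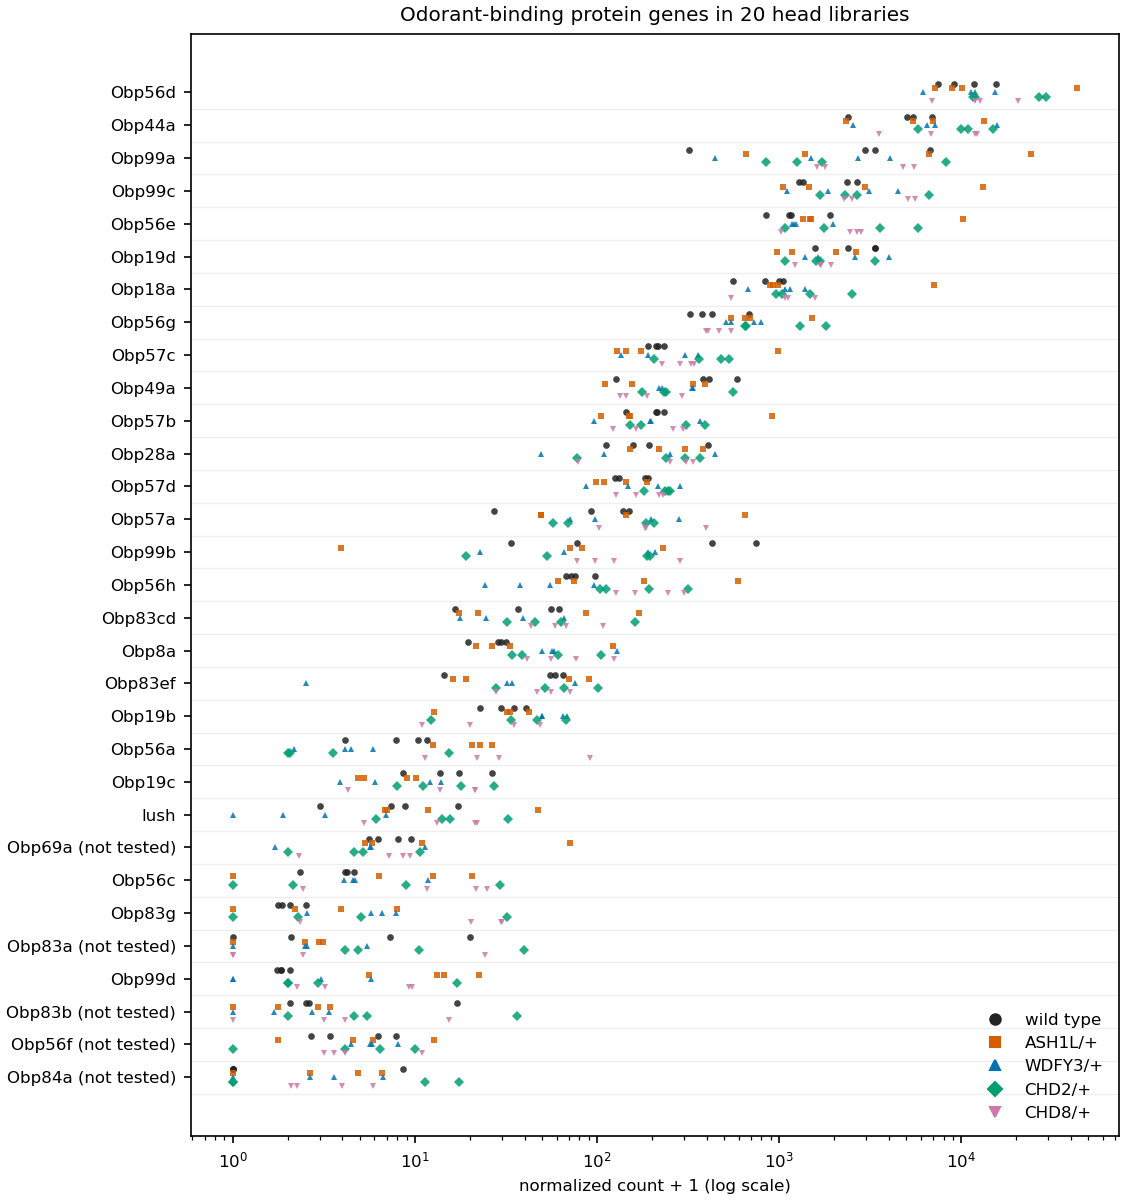
Normalized count + 1 on a log axis (horizontal) for each member that reached 10 in at least 1 of the 20 libraries (vertical, highest mean at the top), with 1 point per library and 1 marker shape and colour per genotype. The points of the 5 genotypes mix in nearly every row, and the top 5 members hold most of the family's signal.

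Most members lie in clusters of short genes. On the BDGP6 assembly 29 members lie on chromosome arm 2R, 12 on 3R, 6 on X, 3 on 3L and 2 on 2L, and the median gene span was 797.5 bp. Obp56d (2R:19702924-19703915) and Obp56e (2R:19712345-19712932) belong to 1 such cluster. Obp99a (3R:29671657-29672334) and Obp99c (3R:29685736-29689311) lie in another, while Obp44a (2R:8134170-8135315) stands alone. Obp83cd and Obp83ef, which encode proteins with a doubled binding domain, overlap by 92 bp on opposite strands. Obp50b and Obp50c share 1 position and had identical values, so they cannot be told apart.

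Of the 52 members, 26 passed the filter used for testing, at least 10 normalized counts in at least 4 of the 20 libraries. This is 50% of the family, against 54.6% of all genes. The 26 others stayed low, and their highest single value was 70.3 normalized counts, of Obp69a in ASH1L/+ 3. Obp83g and Obp99d passed only with the help of 1 genotype in which they were high. Medians and counts over the 26 describe the members that passed, not the family.

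Several members known from antennal hairs were near the limit of detection, while others were not. Obp83a and Obp83b, the abundant proteins of antennal hairs, had medians of 1.77 and 1.84 normalized counts, and neither passed the filter. Lush, which is needed to sense the male pheromone cis-vaccenyl acetate, lay between 0 and 46.5 with a median of 7.10. Obp28a and Obp19d, also known from the antenna, had medians of 243 and 1686 and reached 10 in all 20 libraries. Most antennal markers were low: of 11 matched, 7 never reached 10 normalized counts, and Orco, the shared odorant co-receptor, lay between 0 and 14.1. Eye transcripts were abundant, with ninaE, the major rhodopsin, at 14956 to 46566. One read was estimated to be worth 0.633 to 1.92 normalized counts, so values of a few units rest on a few reads.

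The highest values of the antennal pair fell in the same libraries as those of a10, 1 of the 11 matched antennal markers. Obp83a was at 38.8 in CHD2/+ 1, 23.3 in CHD8/+ 2 and 19.1 in wild type 1, and at most 9.47 elsewhere. In those libraries Obp83b was at 35.3, 14.4 and 16.1, and a10, an antennal secreted protein, was at 32.9, 18.4 and 16.3. Each of the 3 genes had its 3 highest values there. The antennal list as a whole did not. Its summed normalized counts were 165.7, 141.3 and 146 there, against 233.3 in WDFY3/+ 3 and 187.7 in wild type 4. Its mean log2 level was 2.01, 2.49 and 2.17, against 2.18 in wild type 2 and 2.12 in ASH1L/+ 1. The part of antennal tissue in these values was not tested.

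Summed over its 52 members, the family held 0.317 to 1.38% of a library's normalized counts, with a median of 0.70%. Totals of normalized counts ran from 3982750 to 8558270 and estimated depths from 2829313 to 9812496 reads. ASH1L/+ 3 had the largest total and was the highest of the 20 libraries for 12 of the 26 tested members. WDFY3/+ 3 was the highest for 5 members, CHD2/+ 2 for 3 and CHD2/+ 3 for 2. The share was lowest in libraries of replicate number 1, at 0.453 ± 0.151% (SD, n = 5), and highest at number 3, at 0.981 ± 0.278%. Numbers 2 and 4 lay between them, each at 0.738% with an SD of 0.165%. Within every genotype but CHD8/+, the share was lowest at number 1 and highest at number 3, and in CHD8/+ it was lowest at number 1 and highest at number 4.

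More members differed between replicate numbers than between genotypes. The labels number the libraries 1 to 4 in each genotype, and their sample-sheet numbers run together within a number: 74 to 78, 79 to 83, 84 to 88 and 89 to 94. The sources used here do not say what libraries of 1 number share beyond that. In a limma fit with genotype and number as terms, 15 of the 26 members differed among the 4 numbers (F test, adjusted p under 0.05). The background was 51.5% of all genes tested, against 57.7% of the members, so a difference among numbers was about as frequent in the family as elsewhere. Each number was then set against the mean of the other numbers, a gene being called where its adjusted p was under 0.05 and the difference reached 1.5-fold.

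**Figure D2:**
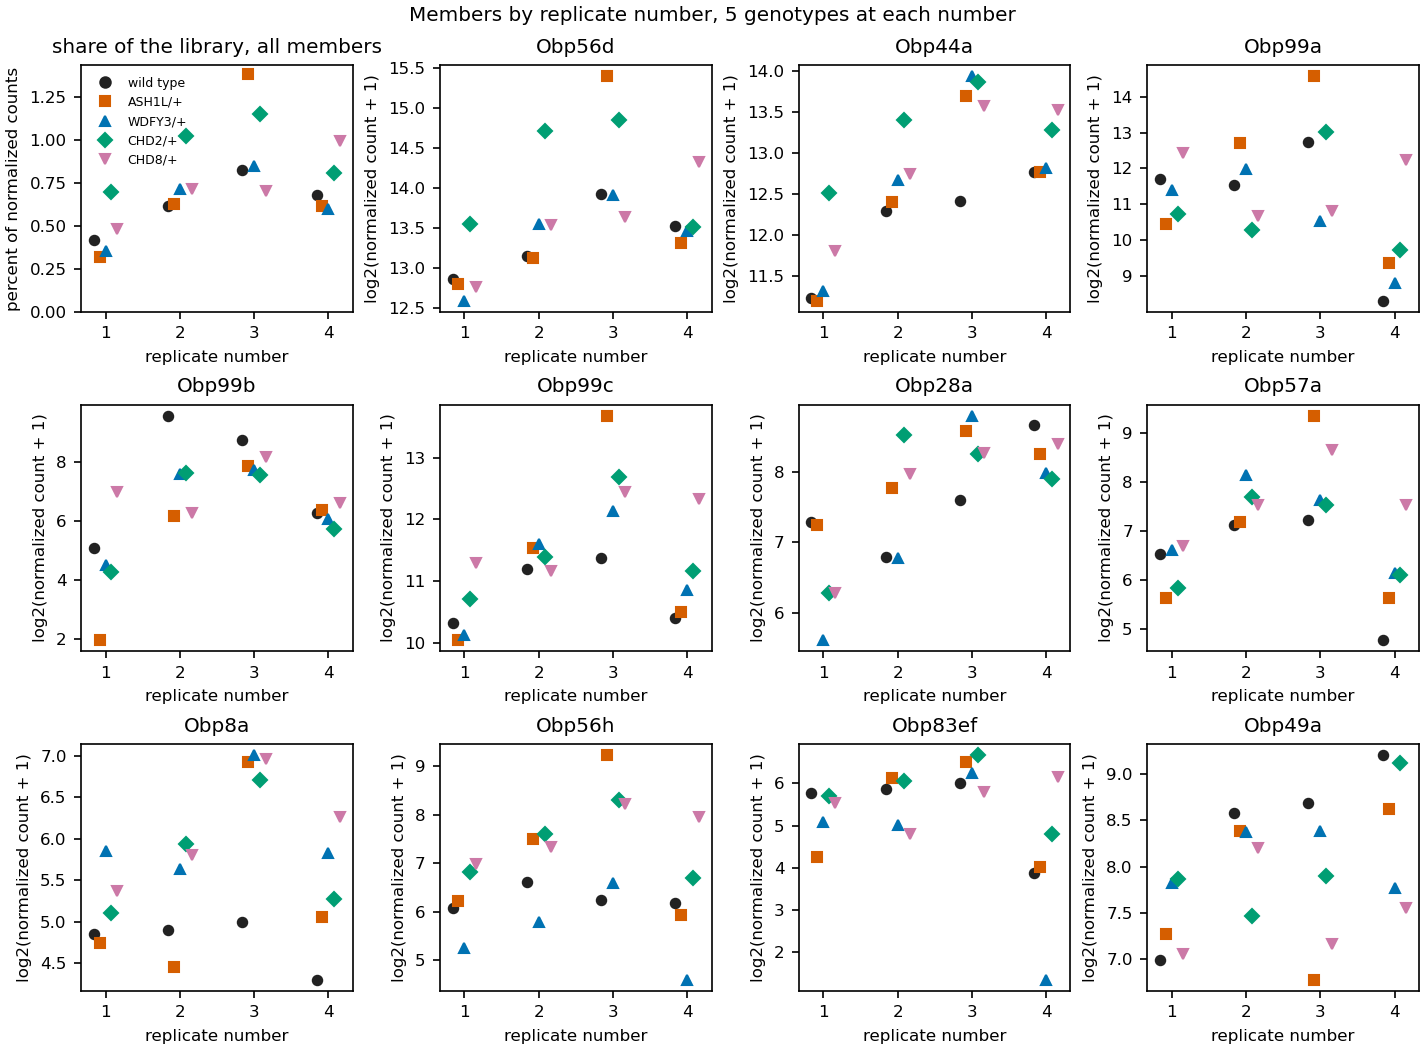
Level as log2(normalized count + 1) (vertical; in the first panel the family's percent of all normalized counts, from 0) against replicate number (horizontal) for the family and 11 members, with 1 point per library and 1 marker per genotype, set slightly apart at each number. In most panels the points are low at number 1 and high at number 3, as for Obp44a, Obp99c and the family share (0.453% at number 1, 0.981% at number 3), while Obp49a and Obp99a follow other courses.

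At number 1, 10 members were lower and 0 were higher, where the background was 16.4% of all genes lower and 23.5% higher. Of these 10, 9 lay below the mean of the other numbers in all 5 genotypes. The median log2 difference of the 26 members was −0.60, against 0.01 for all genes. The members that fell came from several known sites of expression. They were Obp44a, a glial member, Obp28a, an antennal member, Obp49a, which is made in support cells of taste sensilla and takes part in bitter taste, Obp57d of the taste hairs, its relatives Obp57a and Obp57b, Obp99b and Obp99c, Obp56d, and Obp56h, which has been linked to mating behaviour.

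Obp44a had the firmest difference. At number 1 it was at 2398, 2341, 2548, 5818 and 3555 normalized counts. At number 2 it was at 5020.1, 5403, 6510.4, 10840.2 and 6859.9. In every genotype number 1 was the lowest of its 4 libraries. The log2 difference of number 1 from the others was −1.47 (SE 0.19, adjusted p = 3.16e-05).

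Obp99b differed by more, with more scatter. At number 1 it was at 32.8, 2.91, 21.9, 18.1 and 123.8 normalized counts. At number 3 it was at 426, 229, 208, 188 and 283. The 2 sets did not overlap, and the log2 difference of number 1 from all others was −2.66 (SE 0.47, adjusted p = 0.0003). Obp28a was at 156, 151, 48.0, 76.7 and 77.2 at number 1 and fell by 1.49 on the log2 scale (SE 0.28, adjusted p = 0.00055). For the other 7 that fell, the log2 difference ran from −1.13 (Obp99c) to −0.66 (Obp57d).

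At number 3 the direction turned: 15 members were higher and 0 were lower, where the background was 14.0% of all genes higher and 15.5% lower. As a share of those tested, 57.7% of the members were higher. The median log2 difference was 0.93, against −0.04 for all genes (0.59 without ASH1L/+ 3), and 12 of the 15 lay above the mean of the other numbers in all 5 genotypes. Obp99b (1.94), Obp99c (1.49) and Obp57a (1.47) had the largest log2 differences. Both doubled-domain members rose, Obp83ef by 1.29 and Obp83cd by 1.26 on the log2 scale. Obp8a, Obp56g and Obp56e were also among those that rose, Obp8a and Obp56g being known from the male reproductive tract as well. Obp99a and Obp19d, both abundant, did not pass the test at number 3.

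Obp99c and Obp8a were the highest of their 4 libraries at number 3 in all 5 genotypes. Obp99c was at 2665, 13119, 4521, 6613 and 5604 normalized counts there, against 1352, 1449.7, 1861, 2304 and 5125 at number 4. Its log2 difference was 1.49 (SE 0.28, adjusted p = 0.00192). Obp8a was at 30.8, 121, 128, 104 and 123.6 at number 3 and at 18.7, 32.3, 55.7, 37.7 and 75.7 at number 4. The wild type value overlapped those of number 4, and the 4 mutant values lay above all of them. The log2 difference of Obp8a was 1.23 (SE 0.23, adjusted p = 0.002).

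The count at number 3 leaned on single libraries. Without ASH1L/+ 3 it was 7 members (background 8.70% higher), namely Obp44a, Obp56h, Obp57a, Obp57b, Obp8a, Obp99b and Obp99c. Without both ASH1L/+ 3 and CHD2/+ 3 it was 2 members (background 3.24%), Obp44a and Obp99c, each with a log2 difference of 0.96. The estimate for Obp44a with all libraries was 1.05, so it moved little, while the SE grew with fewer libraries. Estimates of others fell, Obp99c from 1.49, Obp18a from 1.04 to 0.37 and Obp56g from 0.59 to 0.18. That of Obp28a went from 0.85 to 0.91, and the median of the 26 members was 0.56. Obp56d shows how far ASH1L/+ 3 stood out: it was at 43002 normalized counts there, against 15530.0, 15402, 29365 and 12689.7 in the number 3 libraries of wild type, WDFY3/+, CHD2/+ and CHD8/+.

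Number 2 gave 0 members in either direction by limma, with 5 members at an unadjusted p under 0.05, and 0% of all genes were called. At number 4, 3 members were lower, where 7.13% of all genes were. Obp99a was at 317, 657, 445 and 845 normalized counts in wild type, ASH1L/+, WDFY3/+ and CHD2/+ at number 4, and at 4815 in CHD8/+. The first 4 values were the lowest of all 20 libraries, and that of CHD8/+ was among the 6 highest. The log2 difference was −2.02 (SE 0.60, adjusted p = 0.0401). Obp83ef (−1.66) and Obp57a (−1.25) were the others, and leaving out wild type 4, ASH1L/+ 4 or WDFY3/+ 4 left 0 members called (2.69 to 4.09% of all genes, in either direction), and leaving out CHD2/+ 4 left 1 (4.77%). Leaving out CHD8/+ 4 gave 8, all lower (12.2% of all genes lower).

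**Figure D3:**
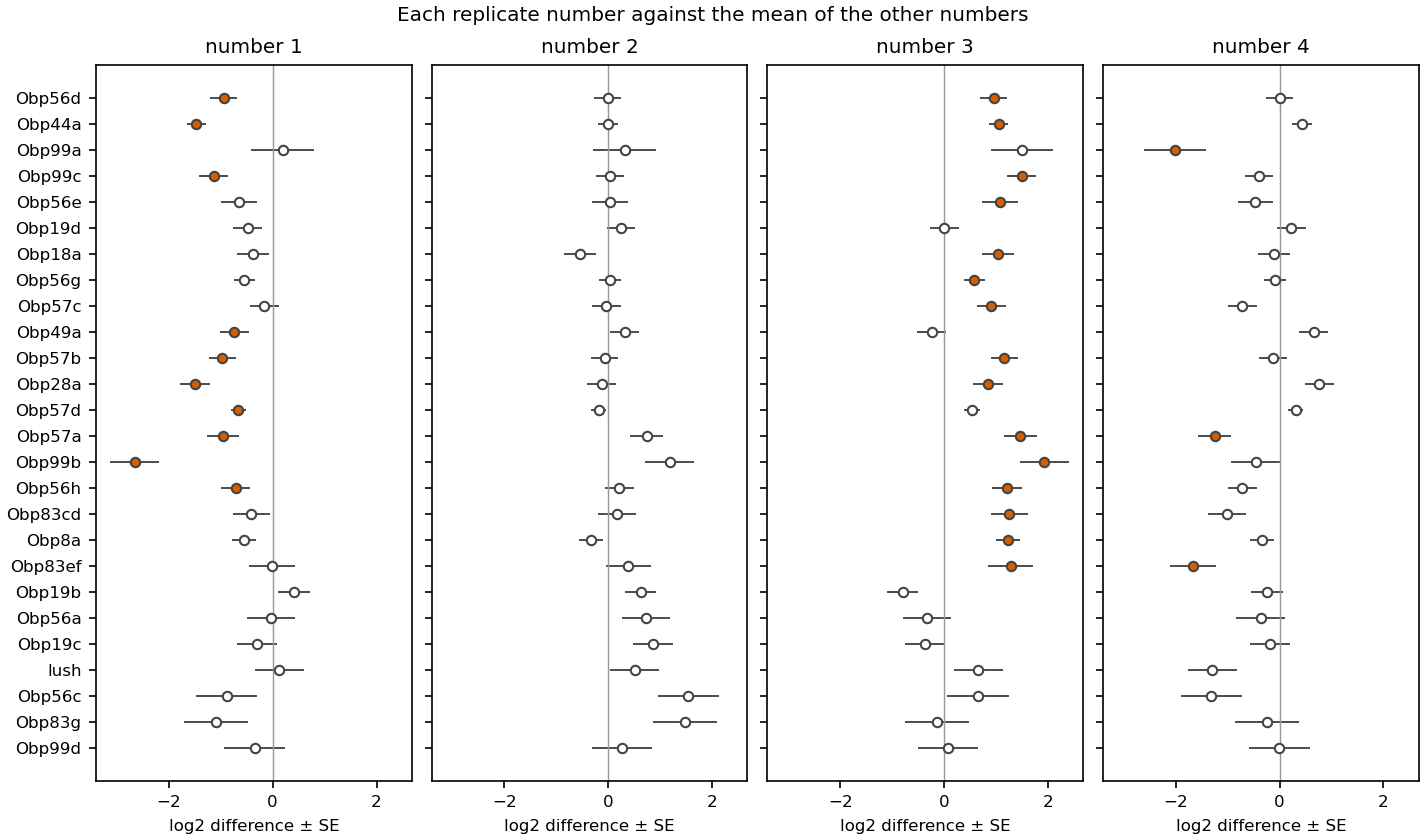
Log2 difference (horizontal, ± SE) of each replicate number from the mean of the other numbers, 1 panel per number, for the 26 tested members (vertical); filled orange points were called. At number 1, 10 members are called lower, none at number 2, 15 higher at number 3 and 3 lower at number 4.

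Markers of other cell types moved with the replicate numbers too. The mean log2 level of 8 neuronal markers was 10.63 at number 1, 10.01 at number 2, 9.67 at number 3 and 10.41 at number 4. Fat body markers had means of 9.89, 10.75, 10.81 and 9.81 in that order, and glial markers 7.63, 7.89, 8.15 and 7.90. Number 1 was thus highest in neuronal and lowest in glial markers, and number 3 the reverse, as it was highest in fat body markers. The sex list, which holds the yolk protein genes, fit and the roX RNAs, had means of 12.20, 13.06, 13.27 and 12.26, and its highest value, 14.10, was in ASH1L/+ 3, where 12 members peaked. Antennal markers, most of which were low, had mean log2 levels of 1.96, 1.92, 1.5 and 1.34. Their summed normalized counts were 126.5, 120.3, 144.2 and 141.8, so mean and sum took different courses. The part of these cell types, or of the flies' sex, in the members' differences was not tested.

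Within the 20 libraries, several members had high correlations with single marker genes, given here out of many computed. On the log2 scale Obp44a had a Pearson correlation of 0.92 with alrm and 0.87 with Gat, both genes of astrocyte-like glia, and of −0.89 with Gad1 of inhibitory neurons. Obp56d had 0.92 with Gat too, 0.90 with to (takeout, a feeding and clock output gene) and 0.81 with Obp44a. Obp99a had 0.86 with fit, a gene of the female fat body, and Obp49a had 0.81 with Rh3, a rhodopsin of inner photoreceptors. These are descriptions over libraries that share replicate numbers, genotypes and scaling factors. In WDFY3/+, for example, alrm was at 24.6 normalized counts at number 1 and 466 at number 3, where Obp44a was at 2548 and 15677. The glial markers as a set moved less than alrm. Their mean log2 level was 7.187, 7.857 and 7.997 at numbers 1, 2 and 3 of WDFY3/+. At number 2 Obp44a was lower than at number 3, at 6510.4, while the summed glial markers were higher, at 3623 against 2962 normalized counts.

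**Figure D4:**
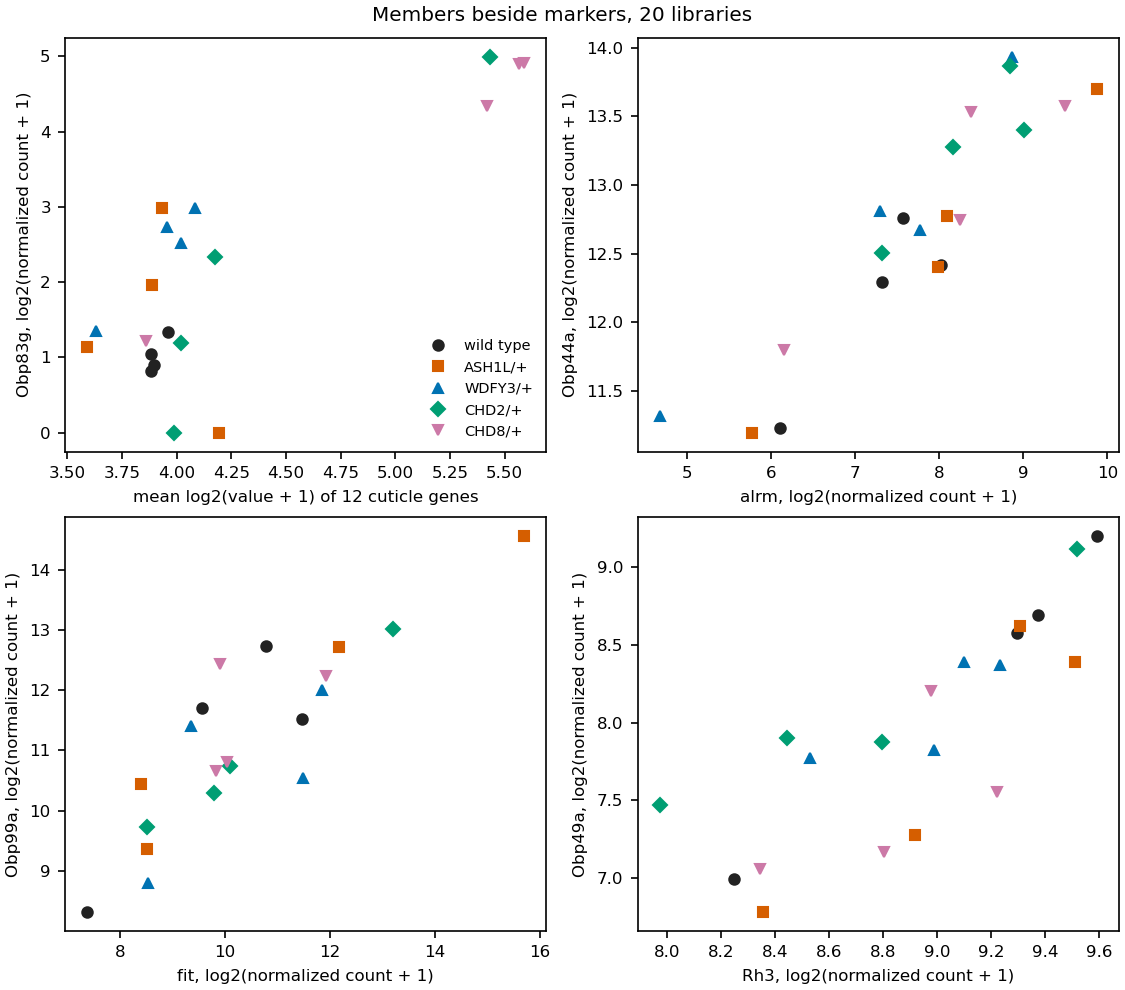
Plotted are 4 members against a marker or marker list over the 20 libraries, each point 1 library coloured by genotype: Obp83g against the mean log2 level of 12 cuticle genes, Obp44a against alrm, Obp99a against fit and Obp49a against Rh3, members and single markers as log2(normalized count + 1). Obp83g is above 19 only in the 4 libraries with a cuticle mean of 5.42 or more, and the other panels rise along 1 band (r = 0.92, 0.86 and 0.81).

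The members also moved with one another. Over the 325 pairs of tested members the median correlation was 0.31, and 245 pairs were above 0. Obp56d and Obp57b had the highest, 0.93, and 0.89 without ASH1L/+ 3. Neighbours in a cluster ranged widely. Obp57c and Obp57b, 48 bp apart, had a correlation of 0.78, and Obp57b and Obp57a, 13 bp apart, of 0.67. Obp83cd and Obp83ef had 0.81, but Obp19b and Obp19c had 0.01 and Obp99d and Obp99b had −0.15. The lowest of all was −0.70, between Obp19d and Obp99d.

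A few members ran against the rest. Obp19d, known from antenna and taste organs, and Obp49a had a correlation of 0.82 with each other. In ASH1L/+ 3, where 12 members peaked, both were at their lowest of all 20 libraries, Obp19d at 970.3 and Obp49a at 109 normalized counts. Obp49a was at 154, 334 and 393 in the other ASH1L/+ libraries. It was highest in wild type 4, at 587, and in CHD2/+ 4, at 555.

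Other genes of the olfactory and taste periphery differed in both directions. Of 40 listed genes (receptors, co-receptors, odorant-degrading enzymes and other secreted carriers), 39 were matched and 17 tested. At number 1, 6 differed in the same fit, 4 lower and 2 higher, and at number 3 there were 3 higher and 1 lower. EbpIII, a secreted chemosensory protein, fell by 1.184 at number 1 on the log2 scale, and the sterol carriers Npc2h and Npc2a fell by 0.68 and 0.66. The co-receptor Ir93a rose at number 1 by 3.22. It was at 52.5, 50.2, 21.0, 9.33 and 43.0 normalized counts there, and at most 7.55 elsewhere. The median log2 difference of the 17 was −0.27 at number 1 and 0.04 at number 3.

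Between genotypes, the comparison the study was built for, no member was called in the fit with 1 mean per genotype. By limma, 0 of the 26 members were called there against wild type in any mutant. The background was 0.0939% of all genes for ASH1L/+, 0.0521% for WDFY3/+, 0.188% for CHD2/+ and 0.271% for CHD8/+. At an unadjusted p under 0.05 there were 2, 2, 1 and 4 members, but Obp99d in ASH1L/+ and Obp83g in CHD8/+ are among them and passed the filter only with the libraries in which they were high. The F test over the 5 genotypes gave 0 members (background 0.313%) and 5 at an unadjusted p under 0.05. At these background shares a call among 26 genes would be rare, so the counts of 0 say little about the members. The median SE of a member's log2 difference was 0.58. With the replicate number as a block it was 0.42. That fit called 2 members in CHD2/+ against wild type (1.21% of all genes) and 2 by the F test over genotypes (1.20%). Same-numbered libraries of wild type and CHD2/+ did not deviate together at every number.

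In CHD2/+ and CHD8/+ the members' estimates lay above 0 more often than those of all genes, and in the other mutants single libraries set the side. Of the 26, 19, 14, 20 and 21 lay above 0 in the 4 mutants, against 53.3, 51.3, 48.4 and 48.8% of all genes. The members' median log2 differences were 0.44, 0.06, 0.61 and 0.46, and those of all genes 0.03, 0.01, −0.02 and −0.01. Without ASH1L/+ 3, 11 members lay above 0 in ASH1L/+ and the median was −0.09, and without WDFY3/+ 3 it was also 11 in WDFY3/+, with a median of −0.15. For CHD2/+ the median was 0.25 without CHD2/+ 3 and 0.31 without CHD2/+ 2, with 20 and 18 above 0. The lowest for CHD8/+ was 0.35, without CHD8/+ 4, with 17 above 0. All 4 comparisons share the wild type libraries, and members move together within a library, so these counts are descriptions. The same 17 periphery genes had medians of −0.21, −0.03, −0.20 and −0.06, with 0 called in any mutant (2, 0, 1 and 2 at an unadjusted p under 0.05).

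**Figure D5:**
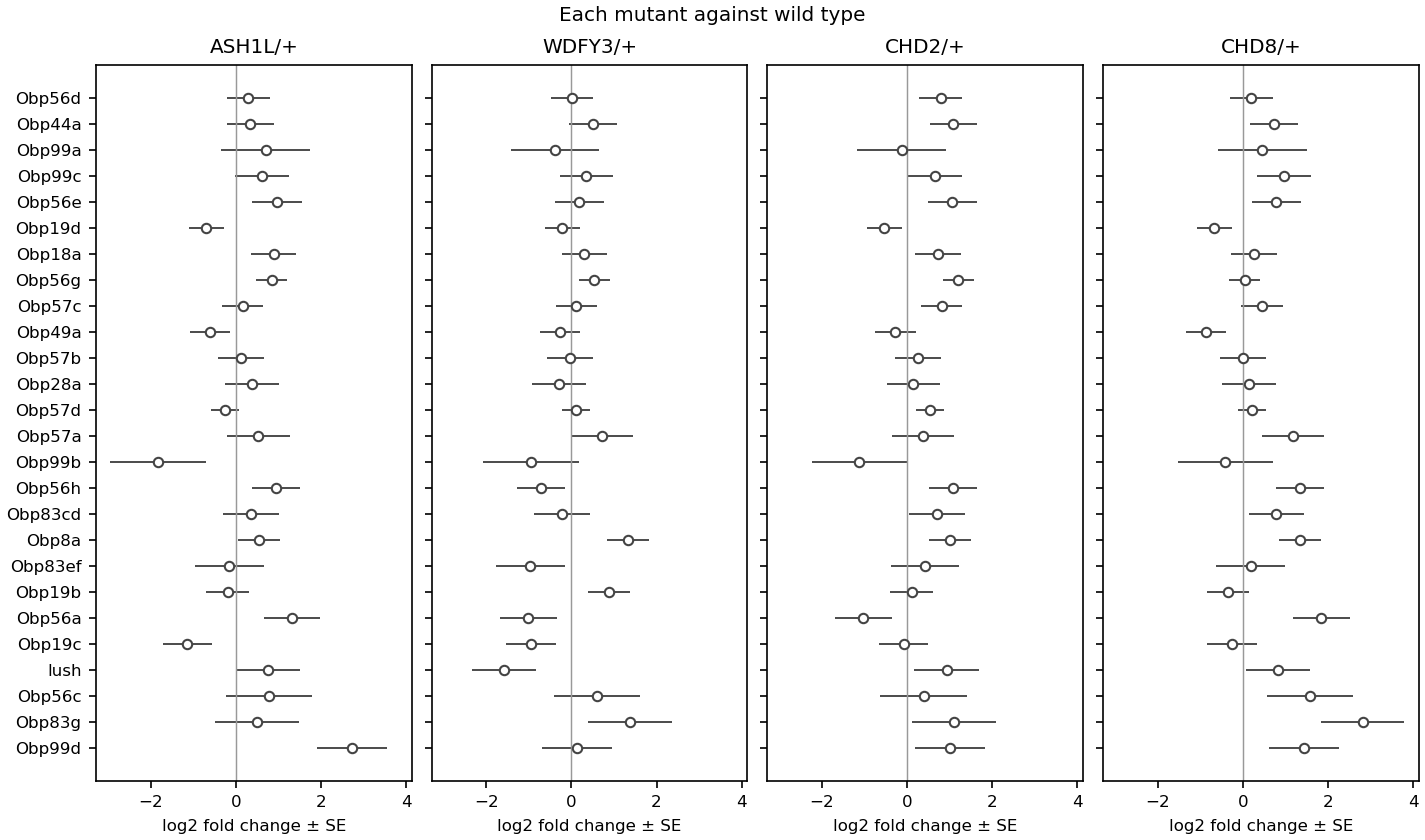
Log2 difference from wild type (horizontal, ± SE) in ASH1L/+, WDFY3/+, CHD2/+ and CHD8/+ for the 26 tested members (vertical). No point is filled because none was called, and 21 of 26 points lie right of 0 in CHD8/+ and 20 in CHD2/+.

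Obp8a came closest to a shared shift among the mutants. It was at 27.8, 28.7, 30.8 and 18.7 normalized counts in wild type 1 to 4, and at 40.3, 54.8, 123.6 and 75.7 in CHD8/+. All 4 libraries of WDFY3/+ (48.6 to 128), CHD2/+ (33.3 to 104) and CHD8/+ lay above every wild type library, and 2 of 4 in ASH1L/+ did. The log2 difference was 1.34 in CHD8/+ (SE 0.49, adjusted p = 0.887) and 1.32 in WDFY3/+ (SE 0.49, adjusted p = 1), so neither passed.

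Between mutants, Obp56a and Obp56h had the smallest p-values. Obp56h was at 126, 161, 298 and 245 normalized counts in CHD8/+ and at 36.9, 54.5, 95.5 and 23.2 in WDFY3/+, with 66.7 to 96.7 in wild type. The CHD8/+ values lay above all of the WDFY3/+ and wild type values. The log2 difference of CHD8/+ from WDFY3/+ was 2.07 with an SE of 0.57 and an adjusted p of 0.401. With the replicate number as a block, which pairs the libraries of these mutants, the SE was 0.39 and the adjusted p 0.0347. The pairing was weak at some numbers. Deviations of their same-numbered libraries had correlations of 0.66, 0.10, 0.30 and 0.12 over all tested genes at numbers 1 to 4. Over the tested members they were −0.04, −0.28, 0.24 and −0.25. Over the 6 contrasts between mutants, 0 members were called without the block (background 0.104%, 8 at an unadjusted p under 0.05) and Obp56h alone with it (background 0.824%).

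Obp56a was at 9.39, 10.6, 6.90 and 3.14 normalized counts in wild type. In ASH1L/+ it was at 21.7, 11.5, 19.5 and 25.4, all above wild type, and in CHD8/+ at 20.9, 90.2, 10.4 and 28.1. In WDFY3/+ it was at 4.89, 1.181, 3.45 and 3.11, and in CHD2/+ at 1.05, 14.5, 2.56 and 1.01. WDFY3/+ and CHD2/+ overlapped wild type, and CHD8/+ overlapped it by 1 library. The log2 difference of CHD8/+ from CHD2/+ was 2.88 (adjusted p = 0.197).

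Obp56g, also known as a seminal fluid protein, had the smallest p against wild type in CHD2/+. It was at 658, 1307, 1809.7 and 649 normalized counts there and at 321, 429.5, 377 and 684 in wild type. Wild type 4 overlapped the CHD2/+ values. The log2 difference was 1.20 (SE 0.36, adjusted p = 0.37 by limma). With the replicate number as a block, the adjusted p by limma was 0.0464. In CHD8/+ the 4 libraries lay between 397 and 541, within the wild type range.

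Lush differed most in WDFY3/+, at low values. It was at 16.2, 6.41, 7.78 and 2.005 normalized counts in wild type and at 2.20, 5.96, 0.88 and 0 in WDFY3/+. The groups overlapped, and the log2 difference was −1.58 (SE 0.76, adjusted p = 1). In ASH1L/+ 3 it reached 46.5, its highest value of all 20 libraries.

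Obp99d and Obp83g passed the filter only with libraries of the genotype in which they were high, so their values are given as a description with no test. Obp99d was at 0.83, 1.05, 0.76 and 0.85 normalized counts in wild type and at 13.4, 4.61, 21.5 and 12.2 in ASH1L/+. Values near 1 rest on about 1 read. Obp83g was at 1.33, 29.2, 28.7 and 19.3 in CHD8/+ and at most 1.54 in wild type.

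The values of Obp83g went with those of cuticle genes, in libraries that were also the highest in summed muscle markers. It was at 30.9 in CHD2/+ 2, 29.2 in CHD8/+ 2, 28.7 in CHD8/+ 3 and 19.3 in CHD8/+ 4, and at most 6.93 in the other 16 libraries. The mean log2 level of 12 cuticle genes was 5.42 to 5.59 in those 4 libraries and 3.59 to 4.19 elsewhere, and their summed normalized counts were 5157 to 9326 and 1088 to 3208. Of the 12 genes, 10 had a higher mean in the 4 libraries, and 5 were above all other 16 in each of them. The chitin synthase gene kkv was at 39.4, 71.7, 51.4 and 17.0 there and at most 7.14 in the others. Obp56c was also high in them, at 28.2, 20.7, 10.6 and 23.8, although it reached 19.6 in ASH1L/+ 3 and 11.6 in ASH1L/+ 2. The correlation over the 20 libraries was 0.84 between Obp83g and kkv and 0.73 between Obp56c and kkv. Obp83g reached 10 only in these 4 libraries and passed the filter through them, so its correlation is a description and no test. Among the 12 cuticle genes, kkv is 1 example. Summed muscle markers were at 50806, 61315, 72042 and 50616 normalized counts in the 4 libraries and at most 39267 in the others. The part of newly formed cuticle or of muscle in these values was not tested. Without the 4 libraries, 17 members were higher at number 3 (background 16.1% higher) and 9 were lower at number 1 (background 15.2% lower).

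In the double heterozygote CHD8/+; PPP2R5D/+ levels cannot be set against the other groups, because the table was scaled apart and holds fewer genes. Ranks were compared instead among the 12476 genes present in both sets, rank 1 being the highest mean. Of the 52 members 41 were there, and the other 11 were not analysed here. Of the 41, 10 ranked within the first 1000 genes in the double heterozygote, 7 in CHD8/+ and 8 in the mean of the 20 libraries. The family held 1.04, 0.872 and 0.863% of the normalized counts in the 3 libraries.

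The leading member was another one. Obp99c ranked 27 in the double heterozygote, against 189 in CHD8/+ and 218 in the mean of the 20 libraries. In its 3 libraries it ranked 23 to 47, above its rank of 91 to 597 in each of the 20. Obp56d, which led elsewhere, ranked 188, against 44 in CHD8/+ and 38 in the mean of the 20. Its ranks of 133 to 447 lay below those of 16 to 81 in every other library.

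The same held for another member in each direction. Obp56a ranked 2313 to 2844 in the 3 libraries and 3833 to 10834 in the 20. Obp57d, the taste-hair member, ranked 5343 to 7762 in the 3 and 1863.5 to 3930.5 in the 20. Among the 8960 shared genes that passed the filter, 7.89% ranked above all 20 in each of the 3 libraries and 9.15% below, against 2 and 2 of the 26 tested members. Genotype and scaling cannot be told apart here, and this group has no wild type of its own. Whether its libraries were sequenced in another run is not given by the labels.

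The rest of the upper ranks shifted in both directions. Obp44a ranked 98, near its rank of 75 in CHD8/+. Obp19d ranked 139 (430 in CHD8/+), Obp56g 425 (1340) and Obp57c 835 (1889), each higher on the list than in CHD8/+. Obp99a ranked 513 (211) and Obp18a 935 (626), each lower. Obp99b varied among the 3 libraries, at 1036, 421 and 4053 normalized counts. Obp83g was at 11.5, 141 and 96.6 in them, and 8 of the 12 cuticle genes were likewise lowest in the first library, among them kkv at 2.49, 148 and 133. Cpr51A, Cpr64Ad, Cpr66D and Cpr72Ec were not. Muscle markers except Act88F were also lowest in the first library, with Mhc at 2134, 7786 and 6817.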

How the data were processed

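Heads were measured in 23 libraries, 4 of wild type and of each single heterozygote and 3 of CHD8/+; PPP2R5D/+. Per the labels, the authors made 3′ mRNA libraries (Lexogen) and used Salmon 0.12.0, the BDGP6 build and DESeq2. The deposited signal values used here are normalized counts per gene, in tables of 17559 genes (the first 20 libraries, on 1 scale) and 12623 genes (the other 3). They are not whole reads, so no count model was run.

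Values were analysed as log2(normalized count + 1). The 9588 genes that reached 10 normalized counts in 4 or more of the 20 libraries were tested in R 4.3.3 with limma 3.58.1 (lmFit, eBayes with trend), and p-values were adjusted by Benjamini-Hochberg over all tested genes in each comparison. Genotype comparisons had 1 mean per genotype. Replicate numbers were compared with genotype and number as terms. The scripts were tested on simulated data with independent noise and known changes in CHD8/+, set in better expressed genes. The fit recovered 21% of 2-fold and 75% of 4-fold changes, with 7 false calls among 9588 genes. The filter favours genes that are high in some libraries, log2 values understate changes of low genes, and p-values measure the spread between these replicates.

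Same-numbered libraries deviated together (correlation over 0.1 at every number) in 7 of 10 pairs of genotypes. The exceptions were CHD2/+ with wild type (0.0732 at number 2, 0.278 to 0.46 at the others), with ASH1L/+ and with CHD8/+. Pairing comes from the data. The labels give the numbers and neighbouring sample-sheet numbers, not a shared litter, batch or day.

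Values are given for members called in any comparison, with or without the block, the 10 with the highest mean, the 5 with the widest range, and their cluster neighbours. Members and marker lists (antenna, eye, neuron, glia, fat body, muscle, cuticle, sex, olfactory and taste periphery, male reproductive) were chosen with earlier results of these data known. Further members were named after their values were seen. Positions come from a later Ensembl annotation of the same assembly, in which all 52 members were found. No sequences were used here. Alternatives were other added values, filters, scalings, variance trends, terms and left-out libraries. Those leaving out ASH1L/+ 3 with CHD2/+ 3, or the 4 libraries highest in cuticle genes, were added after seeing the data.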

Additional observations from a re-analysis of the deposited data

Results flagged for a closer look

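Of the 135 sets of 4 libraries checked, 11 held 1 library far from the other 3, where chance gives about 1 in 20. ASH1L/+ 3 stood high for Obp56e (10218 normalized counts), Obp18a (7127), Obp57c (981) and Obp57b (911). The next highest ASH1L/+ values of these members were 1501, 983, 175 and 150.3. WDFY3/+ 3 stood high for Obp56e (1986) and Obp8a (128), and WDFY3/+ 2 for Obp56c (10.8). CHD8/+ 1 stood low for Obp56e (1020.3) and Obp83g (1.33), and wild type 4 for Obp83ef (13.5) and Obp56c (1.35).

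For 3 members, 2 mutants lay on opposite sides of wild type at every replicate number. The share of all genes that did so was not computed. Some sides were near ties on the log2 scale. They were −0.007 for Obp56a in WDFY3/+ at number 4, and for Obp57d −0.025 in ASH1L/+ at number 3 and 0.019 in CHD8/+ at number 1. Obp57d was above wild type in CHD2/+ and below it in ASH1L/+ (log2 difference 0.79, adjusted p = 0.726), and above it in CHD8/+ (0.46 from ASH1L/+, adjusted p = 0.999). Obp56a was above wild type in ASH1L/+ and CHD8/+ and below it in WDFY3/+. The log2 difference of WDFY3/+ from ASH1L/+ was −2.34 (adjusted p = 0.826), and that of CHD8/+ from WDFY3/+ was 2.87 (adjusted p = 0.2). Lush was above wild type in CHD2/+ and below it in WDFY3/+ (2.51, adjusted p = 0.497). None of these differences passed limma's test.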

How the results depend on the processing

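With the replicate number as a block, 2 members were called in CHD2/+ against wild type (Obp44a and Obp56g, 1.21% of all genes), 2 by the F test over genotypes (Obp56a and Obp56h, 1.20%) and 1 between mutants (Obp56h, 0.824%), where 0 were called without it. Wild type and CHD2/+ libraries did not deviate together at every number, and the block changed no other count. Leaving out 1 library in turn gave 7 to 11 members at number 1 (30.6 to 42.0% of all genes, either direction), 7 to 16 at number 3 (18.2 to 34.1%, with 7 without ASH1L/+ 3), 0 to 8 at number 4 (2.69 to 20.7%) and 12 to 18 by the F test over numbers (41.7 to 58.9%). The F test over genotypes then gave 0 to 1 (1 without CHD2/+ 2, with 0.24% of all genes). Without ASH1L/+ 3 and CHD2/+ 3 the count at number 3 was 2, both higher (3.24% of all genes higher), and that of the F test over numbers 9 (39.7% of all genes). Without the 4 libraries highest in cuticle genes, 8 members were called at number 4, 7 lower and 1 higher (11.1% and 8.04% of all genes). The causes were not tested, and neither was the part of the smaller number of libraries in these fits. Added values of 0.5 and 5 and the stricter filter changed no call of a named member. Of 37 results on named members, 5 lost their call under quantile normalization, 4 with no variance trend, 2 with no filter and 1 under median-of-ratios factors, and 4 of 28 did with no genotype term. None reversed. The 10 members within the first 1000 ranks of the double heterozygote stayed 10 without any 1 of its libraries. Depth limits the 29 members with means under 10, whose values rest on a few reads.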

Other observations

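Of 7 matched transcripts of male reproductive glands, 5 never reached 10 normalized counts in the heads, and all 7 had medians under 10. Their mean log2 level was 1.16, 1.09, 0.41 and 0.10 at numbers 1 to 4, so numbers 1 and 2 were close. The values of 1 of them are given here. Acp26Aa, a seminal fluid protein, was at 55.9, 58.4, 30.2 and 50.1 normalized counts in the number 1 libraries of wild type, ASH1L/+, WDFY3/+ and CHD8/+, and at 2.27 in that of CHD2/+. In the other 15 libraries it was at most 15.6. The members that are also known as seminal fluid proteins did not have their highest values there. Obp8a was at 27.8, 25.6, 56.8 and 40.3 in the first 4 of these libraries, and Obp51a was listed at 0 in all 20. Obp56f was at most 4.85 in any number 1 library.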
